A study of Mus musculus with 5 samples.

Results

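Whole lung was profiled by RNA sequencing in female wild-type BALB/c mice, and 41 genes that type I interferon is known to induce were followed over all 5 libraries. They were taken by gene symbol from 23183 symbols in the count tables, all 41 were listed, and all 41 were among the 14305 genes measured, meaning that they averaged 1 CPM or more over the libraries (CPM is the count scaled to library size). The groups were a control with no treatment, mice given PM10 (inhalable particulate matter) into the nose 4 times over 2 weeks, and mice given PM10 together with ovalbumin (PM10/OVA), an allergen injected at first and later dropped into the nose. A further pair of groups had PM10 and OVA plus either a chitinase-1 inhibitor (CPX), injected 6 times over 3 weeks, or dexamethasone (Dex), a synthetic glucocorticoid, injected 3 times in the last week. The mice were sacrificed 2 days after their final challenge. The labels state no dose or age, nor whether a library held 1 animal or a pool. Each group had 1 library, so there are no replicates, no difference has a replicate check and every comparison is between libraries. Library totals ran from 11993222 to 16929068 counts, and the lowest count of any of the 41 genes was 15 (Mx2 in PM10/OVA/Dex), so depth left none of them near 0.

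Type I interferons are secreted when cells sense foreign or misplaced nucleic acid. They bind the receptor pair IFNAR1 and IFNAR2, whose kinases JAK1 and TYK2 phosphorylate STAT2. With IRF9 it takes part in a complex that binds the interferon-stimulated response element (ISRE) near antiviral genes. IRF7, itself induced this way, amplifies further interferon production. Type III interferon uses another receptor and the same complex, and interferon-gamma, acting at GAS elements, induces many of the same genes, so the name of the set does not say which interferon acted.

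RefSeq windows on GRCm38.p6, from 250 bases before to 50 after an annotated start, were held for 30 of the 41 genes. The letters are those of the C57BL/6J reference, whereas these mice were BALB/c. The ISRE core was searched as GAAA, any 2 bases and GAAA again, on both strands, and was found for 15 of these 30 genes (50%), against 3.99% of all 27025 genes with a window. A GAS letter pattern, TTCNNNGAA, which is its own reverse complement, was found for 6 of the 30 (20%) against 9.55% of all genes. Matches are letters in a window, not measured binding. The stretches shown end before the start site and show cores at strongly and weakly differing genes, with the matches in capitals, 5′ to 3′ on the strand of the gene.
Isg15 (chr4:156200860-156200911, - strand): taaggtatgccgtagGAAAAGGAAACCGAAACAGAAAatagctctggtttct
Ifit1 (chr19:34640770-34640828, + strand): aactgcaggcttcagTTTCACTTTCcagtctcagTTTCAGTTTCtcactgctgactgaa
Ifit3 (chr19:34583358-34583431, + strand): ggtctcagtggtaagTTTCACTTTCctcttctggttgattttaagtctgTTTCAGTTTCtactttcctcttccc
Oas1a (chr5:120907526-120907560, - strand): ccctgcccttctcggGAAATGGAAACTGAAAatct
Oas3 (chr5:120777710-120777749, - strand): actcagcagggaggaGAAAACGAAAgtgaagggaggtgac
Bst2 (chr8:71537572-71537617, - strand): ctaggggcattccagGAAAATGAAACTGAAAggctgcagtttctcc
Ddx60 (chr8:61928019-61928086, + strand): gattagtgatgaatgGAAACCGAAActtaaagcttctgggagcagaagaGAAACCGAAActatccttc
Rsad2 (chr12:26456548-26456587, - strand): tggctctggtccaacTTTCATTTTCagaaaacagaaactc
Stat2 (chr10:128270261-128270300, + strand): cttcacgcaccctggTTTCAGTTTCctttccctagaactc
Slfn5 (chr11:82951932-82951971, + strand): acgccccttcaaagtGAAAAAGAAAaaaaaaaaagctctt
In Isg15, 3 overlapping cores ran together. Ifit1, Ifit3 and Ddx60 each held 2 separate cores, and Oas1a and Bst2 each held 2 that overlapped. The GAS match of Bst2 also overlapped its first core. Of the 15 genes with a core, 12 were at least 2-fold higher in PM10 than in control, with a median log2 ratio of 1.93. The same count, 12 of 15, held for genes whose window had no core (median 1.51), which include Irf7, the gene with the highest ratio. Slfn5 held a core and had the lowest ratio. For the Irf7 window, the first bases after the start were not found in an annotated (GENCODE) transcript of the gene. The same held for the windows of Ifit3, Oas1a, Bst2 and Stat2, so these starts are less certain.

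**Figure D1:**
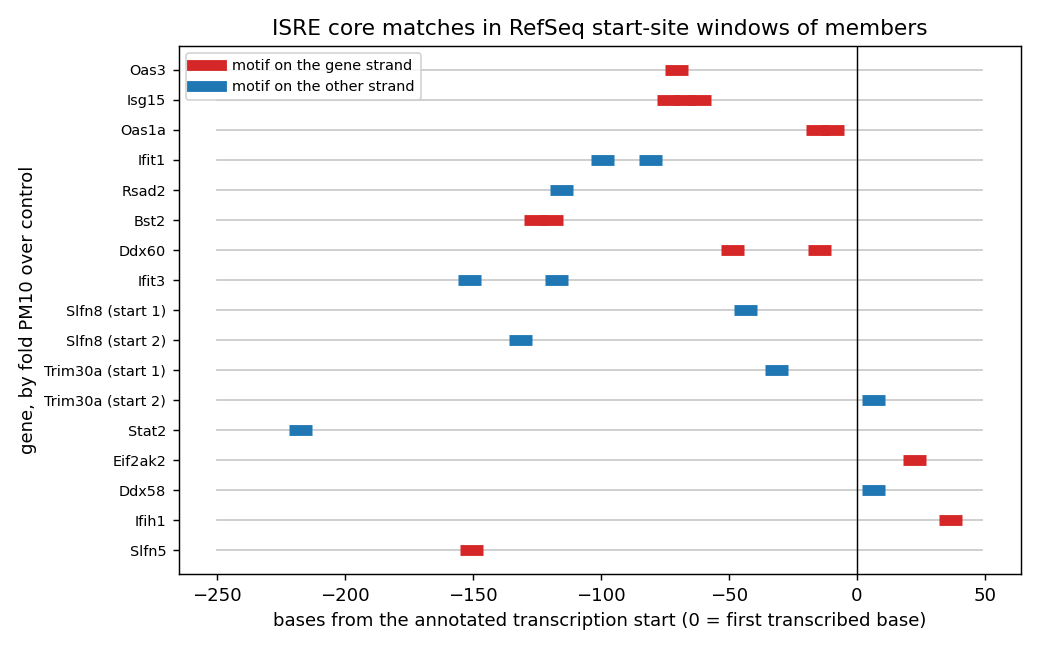
Positions of ISRE core matches, in bases from the annotated transcription start (x axis), in the windows of the 15 members that held a match. Bars mark the 10-base match, red on the strand of the gene and blue on the other, and genes are ordered by their fold of PM10 over control. The matches lay mostly before the start, while those of Eif2ak2, Ddx58 and Ifih1, and the match in the second window of Trim30a, lay after it.

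All 41 genes had their highest level in the PM10 library, which was the highest library for 18.3% of all genes measured, while control was for 24.6% and PM10/OVA for 19.9%. The lowest level was in PM10/OVA/Dex for 33 of the 41, against 17.6% of all genes, in control for 6 (26.3% of all genes) and in PM10/OVA for 2 (17.6%). PM10/OVA was second highest for 24 and PM10/OVA/CPX for 12, but the share of all genes was not computed for second place. Their summed level was 1883, 5845, 2175, 2089 and 1649.6 CPM, given here and from here on in the order control, PM10, PM10/OVA, then the inhibitor (CPX) and the dexamethasone library. PM10 stood alone at the top of this sum, and the remaining libraries lay closer together. The median level of the 41 genes was 28.5, 114, 45.6, 36.4 and 21.2 CPM, a wider relative spread among the libraries other than PM10. In bulk tissue, more cells of an expressing type and more RNA per cell cannot be told apart. Per kilobase of annotated exon, Ifi27l2a, a small membrane protein gene, had the highest mean level over the 5 libraries (289.7 CPM per kb), followed by Bst2 (113.6), Lgals3bp (78.4), Slfn5 (57.7) and Isg15 (51.3). Mx1 (2.02), Mx2 (1.89) and Oas1b (1.66) were the lowest.

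**Figure D2:**
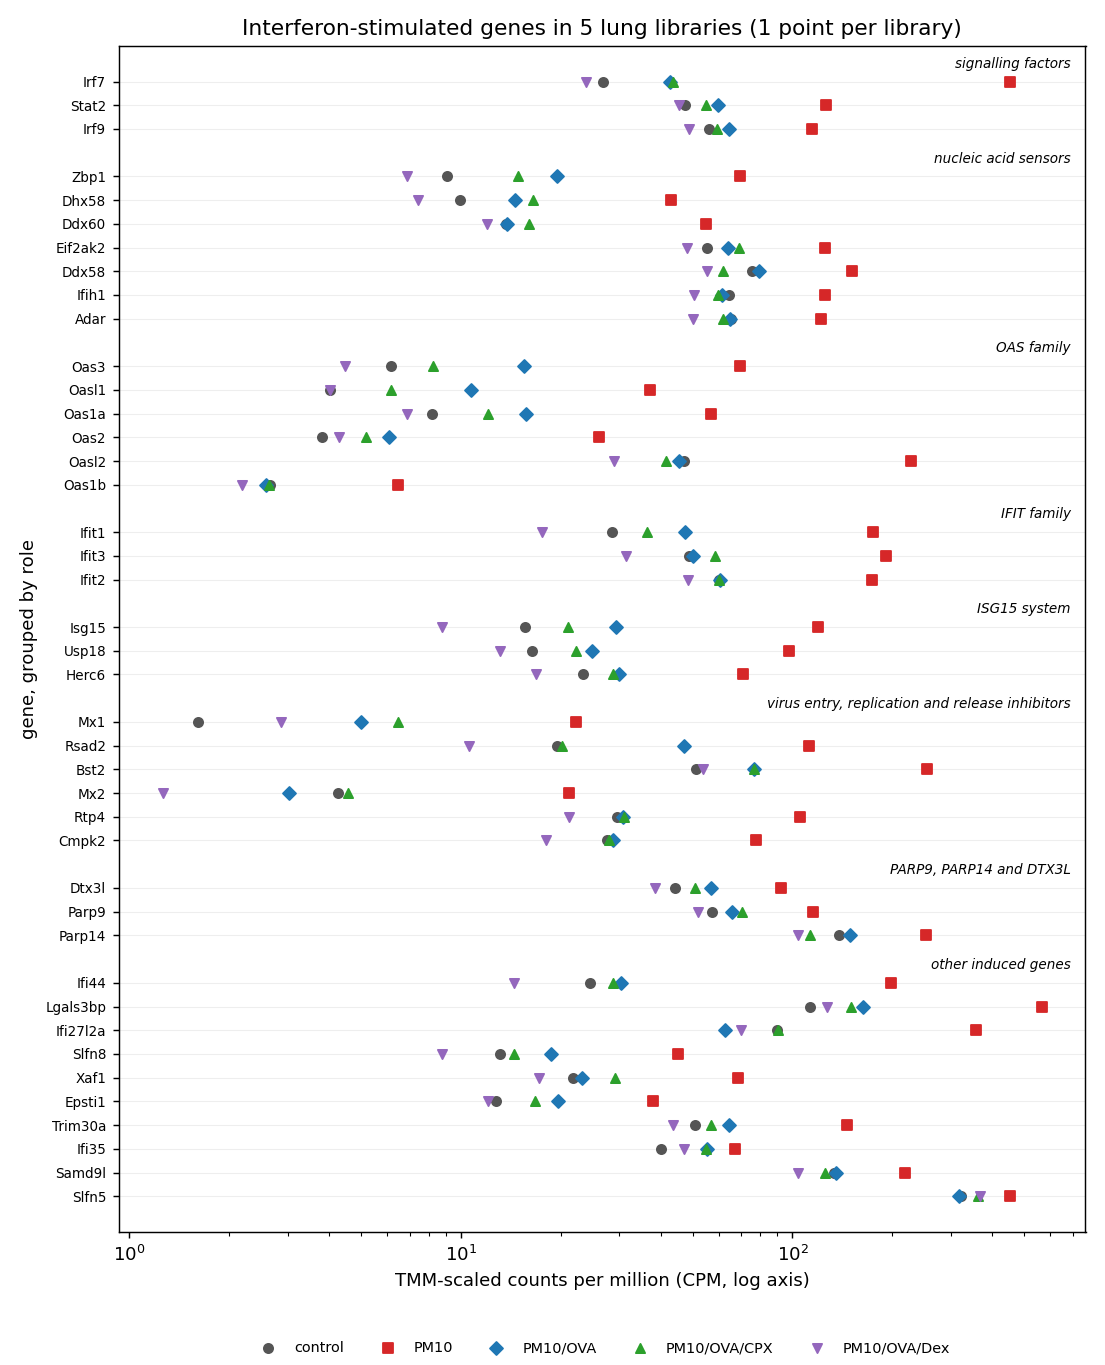
Level of each member in each of the 5 libraries, in TMM-scaled CPM on a log axis (1 point per library, no replicates), grouped by role. The red PM10 square is the rightmost point in all 41 lines, and the purple PM10/OVA/Dex triangle is the leftmost in 33.

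PM10 against control asks how this program differs in lungs exposed to the particles. Of the 41 genes, 34 were at least 2-fold higher on log2(CPM + 1) and none was 2-fold lower, where 3.7% and 2.04% of all genes measured were. The median log2 ratio was 1.79, against 0.00 for all genes, and all 41 ratios lay above 0 (49.7% of all genes). They ran from 0.49 for Slfn5 to 4.02 for Irf7. Folds given below are ratios of CPM with an exact 95% interval that covers counting error only.

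The transcription factors differed widely in size. Irf7 (GRCm38 chromosome 7, 141262706 to 141266481) was at 26.9, 452, 42.6, 43.5 and 23.9 CPM. Only the PM10 library was high, 16.8-fold higher (15.3 to 18.5). Stat2, a subunit of the ISRE-binding complex, was at 47.5, 127, 59.5, 55 and 45.4 CPM, 2.67-fold higher (2.45 to 2.91). Irf9, the DNA-binding subunit of that complex, was at 56, 114, 64.2, 59 and 48.9 CPM, 2.04-fold higher (1.88 to 2.22). Both were highest in PM10 with the other libraries close to control.

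Sensors of nucleic acid fell into a strongly and a weakly differing group. Zbp1, a sensor of Z-form nucleic acid that can start necroptosis, was at 9.11, 69.3, 19.5, 14.9 and 6.9 CPM, 7.61-fold higher (6.41 to 9.08). Dhx58 (LGP2), a regulator of the RIG-I-like receptors, was at 9.92, 42.9, 14.6, 16.5 and 7.4 CPM, 4.33-fold higher (3.63 to 5.17). Ddx60, a related helicase, was at 13.7, 54.8, 13.8, 16 and 12 CPM, 4.01-fold higher (3.45 to 4.67). These 3 had low levels in control, which is the denominator of the fold. The RIG-I gene Ddx58 was at 75.5, 151, 79.3, 61.7 and 55.1 CPM, and its log2 ratio of 0.99 fell just short of 2-fold. Ifih1 (MDA5), the sensor of long double-stranded RNA, was at 64.3, 125, 61.4, 59.8 and 50.4 CPM (1.94-fold), and the RNA-editing enzyme gene Adar, which marks cellular RNA as self, at 65, 122, 64.8, 61.7 and 50 CPM (1.87-fold). Eif2ak2 (PKR), which halts translation on binding double-stranded RNA, was at 55.2, 125, 64.1, 68.9 and 47.9 CPM, 2.27-fold higher (2.09 to 2.46). These 4 were expressed at 55 CPM or more in control and differed by about 2-fold.

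The oligoadenylate synthetases make the messenger that activates the RNA-degrading enzyme RNase L, and all 6 family members were at least 2-fold higher in PM10 (median log2 ratio 2.57). Oas3 was at 6.17, 69.4, 15.5, 8.22 and 4.46 CPM, 11.3-fold higher (9.19 to 13.9). Oas1a was at 8.19, 56.7, 15.8, 12.1 and 6.9 CPM, 6.93-fold higher (5.78 to 8.36), and Oas2 at 3.81, 26, 6.06, 5.19 and 4.29 CPM, 6.84-fold higher (5.23 to 9.05). Each of these 3 was several-fold above every other library in PM10. The OAS-like genes, whose products bind RNA but differ in enzyme activity, were also higher, Oasl1 at 4.04, 37.3, 10.7, 6.15 and 4.04 CPM (9.24-fold, 7.17 to 12.1) and Oasl2 at 46.9, 228, 45.6, 41.5 and 28.9 CPM (4.86-fold, 4.49 to 5.26). Oas1b had the smallest difference of the family, at 2.65, 6.46, 2.59, 2.63 and 2.19 CPM and 2.44-fold higher (1.67 to 3.59), on 46 counts in control and 78 in PM10. Close paralogs such as Oas1a and Oas1g may share reads, so single values in this family are uncertain, as are those of Ifit3 with Ifit3b and of Slfn8 with Slfn9.

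Among the IFIT genes, whose products bind viral RNA and block its translation, Ifit1 was at 28.5, 175, 47.6, 36.4 and 17.6 CPM, 6.14-fold higher (5.56 to 6.78). Ifit3, which stabilises IFIT1 complexes, was at 48.7, 191, 50.3, 58.5 and 31.4 CPM, 3.93-fold higher (3.63 to 4.26), and Ifit2 at 60.1, 174, 60.5, 60.2 and 48.5 CPM, 2.89-fold higher (2.68 to 3.11). The order of the folds, Ifit1 over Ifit3 over Ifit2, was opposite to that of the control levels. With PM10 levels of 174 to 191 CPM, this follows from dividing by the control level. In the ISG15 system, Isg15, the ubiquitin-like modifier itself, was at 15.6, 119, 29.3, 21.1 and 8.75 CPM, 7.62-fold higher (6.69 to 8.71). Usp18, which removes ISG15 and also silences the receptor, was at 16.4, 97.7, 24.9, 22.3 and 13.1 CPM, 5.95-fold higher (5.22 to 6.79). Herc6, the mouse ligase that attaches ISG15, was at 23.3, 71, 30, 28.7 and 16.9 CPM, 3.05-fold higher (2.7 to 3.44). Modifier and protease thus differed more than the ligase.

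All 6 inhibitors of virus entry, replication or release passed 2-fold. Mx1, a dynamin-like GTPase that blocks influenza viruses and is disrupted in most inbred strains, was at 1.61, 22.3, 4.98, 6.47 and 2.86 CPM, 13.8-fold higher (9.34 to 21.2), on 28 counts in control. Mx2 was at 4.27, 21.1, 3.03, 4.55 and 1.26 CPM, 4.95-fold higher (3.81 to 6.5). The annotation classes Mx2, like Oas1b, as a polymorphic pseudogene, so its RNA level does not show a working protein. Rsad2 (viperin), which makes a chain-terminating nucleotide, was at 19.4, 112, 47, 20.1 and 10.6 CPM, 5.77-fold higher (5.12 to 6.52), and its neighbour Cmpk2, a mitochondrial nucleotide kinase, at 27.7, 77.4, 28.8, 27.9 and 18 CPM, 2.8-fold higher (2.5 to 3.13). Bst2 (tetherin), which holds budding virions at the cell surface, was at 51.3, 255, 76.5, 76.7 and 53.7 CPM, 4.97-fold higher (4.61 to 5.36). Rtp4, a receptor-transporting protein gene with antiviral activity, was at 29.6, 105, 30.7, 31.1 and 21.2 CPM, 3.55-fold higher (3.2 to 3.94). In each of these 6 the PM10 library lay clear of the others.

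The ADP-ribosylation group had the lowest median of the 8 role groups. Parp9, Parp14 and the ubiquitin ligase gene Dtx3l, whose product pairs with PARP9, had a median log2 ratio of 1.0, with Parp14 at 138, 252, 149, 113 and 104 CPM (1.83-fold). Parp9 was at 57.1, 115, 65.7, 70.7 and 51.8 CPM and Dtx3l at 44.3, 92.5, 56.7, 50.7 and 38.6 CPM, so all 3 kept sizeable levels in every library. Among the other induced genes, Ifi44 was at 24.4, 199, 30.4, 28.8 and 14.5 CPM, 8.13-fold higher (7.33 to 9.04). Lgals3bp, a secreted galectin-binding glycoprotein gene, reached the highest CPM of the set, 113, 564, 163, 149.7 and 127, 5.0-fold higher (4.76 to 5.26). Ifi27l2a was at 89.9, 358, 62.4, 90.4 and 69.8 CPM, 3.99-fold higher (3.76 to 4.23). Slfn8 (3.44-fold), Xaf1 (3.15-fold), which promotes cell death, Epsti1 (2.96-fold) and Trim30a (2.86-fold), a brake on inflammatory signalling, lay between. Xaf1 was at 21.7, 68.5, 23.2, 29.1 and 17.2 CPM and Slfn8 at 13.1, 45.2, 18.7, 14.5 and 8.75 CPM. Epsti1 was at 12.8, 37.9, 19.6, 16.8 and 12.1 CPM and Trim30a at 51, 146, 64.5, 56.9 and 43.6 CPM. PM10 was the one high library for each of these 4. Ifi35 (1.67-fold, 40.2, 67.1, 55.4, 54.8 and 47.1 CPM), Samd9l (1.64-fold, 134, 218, 135, 126 and 104 CPM) and Slfn5 (1.41-fold, 323, 454, 318, 361 and 368 CPM) stayed under 2-fold. Slfn5 was abundant in every library and varied little.

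**Figure D3:**
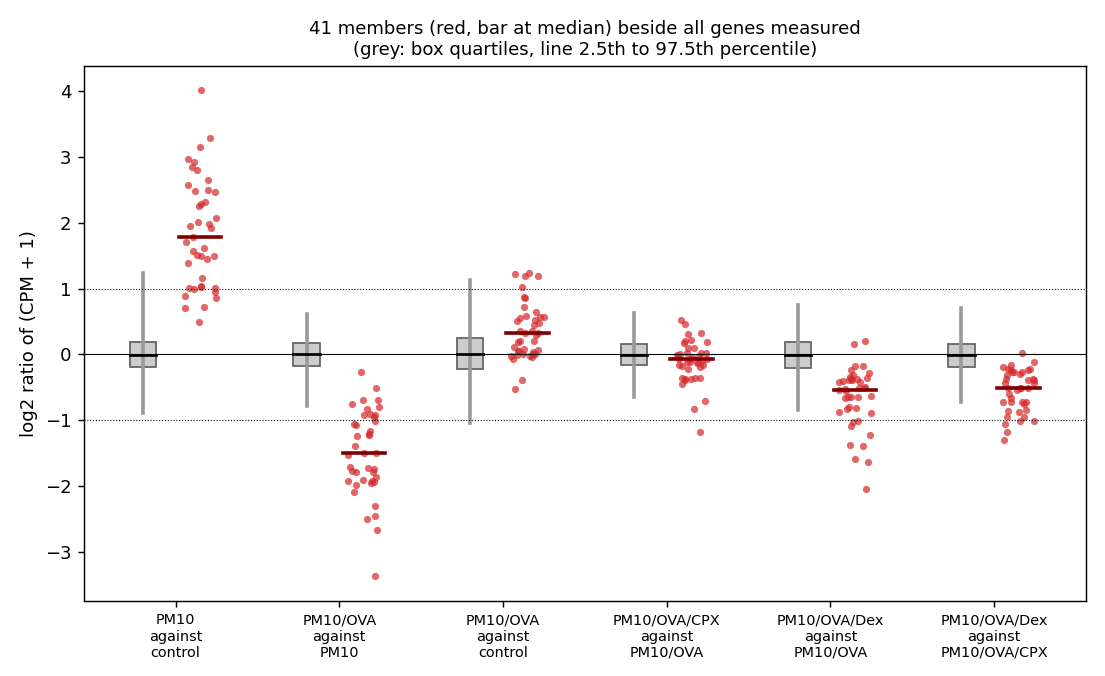
Log2 ratios of (CPM + 1) of the 41 members (red points, bar at the median) in 6 comparisons, beside all 14305 genes measured (grey box for the quartiles, line for the central 95%, black bar for the median). Dotted lines mark 2-fold. The members lie above 0 in PM10 against control (median 1.79), below 0 in PM10/OVA against PM10 (median -1.51) and near 0 under the inhibitor (median -0.07).

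The program was lower in the library with allergen added than in PM10 alone. In PM10/OVA against PM10, 30 of the 41 genes were at least 2-fold lower (1.27% of all genes) and none was 2-fold higher (0.692%). All 41 ratios lay below 0, where 50.7% of all genes lay above it, with a median of -1.51. Irf7 was 10.6-fold lower (9.77 to 11.5), Mx2 6.98-fold lower (5.11 to 9.71) and Ifi44 6.54-fold lower (5.93 to 7.23). Ifi27l2a was 5.74-fold lower (5.36 to 6.16) and Oasl2 5.0-fold lower (4.6 to 5.43). Of the 11 genes that did not pass 2-fold, 6 also had not passed it in PM10 against control, and Parp9, Dtx3l, Irf9, Epsti1 and Eif2ak2 were the others. Injected and inhaled OVA cannot be told apart in this design. This comparison shares the PM10 library with PM10 against control, so a single high library enters both.

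PM10/OVA against control does not use the PM10 library. Here 5 of the 41 genes were at least 2-fold higher (3.17% of all genes) and none was 2-fold lower (2.73%). The median log2 ratio was 0.32 against 0.01 for all genes, and 34 of 41 lay above 0 (51.3% of all genes). The 5 were Rsad2 (2.42-fold, 2.12 to 2.76), Oasl1 (2.66-fold, 2.0 to 3.56), Oas3 (2.51-fold, 1.99 to 3.17), Mx1 (3.09-fold, 1.98 to 4.94) and Zbp1 (2.14-fold, 1.76 to 2.61). With a pseudocount of 5 CPM 1 of the 5 passed 2-fold. Isg15 (1.87-fold, 1.61 to 2.18), Oas1a (1.93-fold, 1.56 to 2.38) and Irf7 (1.59-fold, 1.41 to 1.79) were higher by less than 2-fold, while Ifit2, Ifit3, Ddx60, Adar and Samd9l had log2 ratios of at most 0.04 in size. Ifi27l2a was 1.44-fold lower (1.33 to 1.56) and Mx2 1.41-fold lower (0.967 to 2.07), an interval that takes in no difference. The median in this comparison was thus small, and the set was not uniform.

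CPX, the chitinase-1 inhibitor, went with little difference in most of these genes. In PM10/OVA/CPX against PM10/OVA, 1 of 41 was at least 2-fold lower (0.762% of all genes), Rsad2 at 2.34-fold lower (2.02 to 2.7), and none was 2-fold higher (0.636%). The median log2 ratio was -0.07, with 14 genes above 0 (49.2% of all genes) and 27 below. The next in size were Oas3 (1.88-fold, 1.49 to 2.39) and Oasl1 (1.74-fold, 1.32 to 2.31), also lower, then Ifi27l2a (1.45-fold, 1.33 to 1.58) and Mx2 (1.5-fold, 1.01 to 2.25), which were higher. Isg15 was 1.39-fold lower (1.19 to 1.62). Rsad2, Oas3, Oasl1 and Isg15 were above control in PM10/OVA, while Ifi27l2a and Mx2 were below it. For Mx2 the interval against control took in no difference. Both comparisons use the same PM10/OVA library, so a high or low value there enters them with opposite signs. Against control the inhibitor library had 34 of 41 genes above 0 (52.2% of all genes) and 1 gene 2-fold higher, Mx1 (4.01-fold, 2.58 to 6.4), a share near the 2.73% of all genes. None of the 41 was 2-fold lower (2.99% of all genes).

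Dexamethasone, which represses many inflammatory genes through the glucocorticoid receptor, went with lower levels across the set. In PM10/OVA/Dex against PM10/OVA, 9 of 41 genes were at least 2-fold lower (1.6% of all genes) and none was 2-fold higher (1.2%). With a pseudocount of 5 CPM, 5 genes were at least 2-fold lower. The median log2 ratio was -0.54, with 39 of 41 genes below 0, and Slfn5 and Ifi27l2a above (48.1% of all genes). The 9 were Rsad2 (4.44-fold, 3.67 to 5.4), Isg15 (3.35-fold, 2.7 to 4.18), Oas3 (3.47-fold, 2.57 to 4.76), Ifit1 (2.71-fold, 2.32 to 3.17), Zbp1 (2.83-fold, 2.21 to 3.65), Oasl1 (2.66-fold, 1.92 to 3.74), Oas1a (2.29-fold, 1.78 to 2.97), Ifi44 (2.1-fold, 1.76 to 2.52) and Slfn8 (2.14-fold, 1.71 to 2.7). By role these were 3 of 6 OAS genes, 2 of 10 other induced genes, 1 of 7 sensors, 1 of 6 inhibitors, 1 of 3 IFIT genes and 1 of 3 genes of the ISG15 system. The transcription factors were lower by less, Irf7 by 1.79-fold, Irf9 by 1.31-fold and Stat2 by 1.31-fold.

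Most markers of B cells, monocytes, neutrophils and T and NK cells were lower in the dexamethasone library as well. Against PM10/OVA, 7 of 8 B cell markers were at least 2-fold lower (median log2 ratio -1.39). So were 5 of 13 monocyte markers (median -0.71) and 4 of 10 neutrophil markers (median -0.83). Above 0 lay 4 monocyte markers, Chil3 the highest at a log2 ratio of 1.48, and 1 neutrophil marker, Ltf, at 1.77. Of all genes, 1.6% were 2-fold lower, 1.2% were 2-fold higher and 48.1% lay above 0. All 11 measured T and NK cell markers lay below 0, 2 of them past 2-fold (median -0.60). Of 11 measured alveolar macrophage markers 9 lay above 0, and of 14 heart muscle, fat and cartilage genes 9 were 2-fold higher. The part of these cells and tissues in the lower levels of the 41 genes was not tested.

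For most of the 41 genes, levels under dexamethasone also lay below control. Against control, 34 of 41 genes were below 0 in PM10/OVA/Dex, where 51.2% of all genes were above 0, with a median log2 ratio of -0.32. Mx2 was the 1 gene past 2-fold (2.01% of all genes were that much lower), at 3.38-fold lower (1.92 to 6.35) on 15 counts against 74. Rsad2 (1.83-fold, 1.49 to 2.27), Isg15 (1.79-fold, 1.42 to 2.26), Ifi44 (1.69-fold, 1.41 to 2.03), Oasl2 (1.62-fold, 1.43 to 1.85) and Ifit1 (1.62-fold, 1.38 to 1.92) followed. Mx1 went the other way, 1.77-fold higher (1.04 to 3.03), on 34 counts against 28.

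Set directly against the inhibitor, the dexamethasone library was lower in 40 of 41 genes, where 47.6% of all genes were higher, with a median log2 ratio of -0.51. Of these, 5 were at least 2-fold lower (0.734% of all genes) and none 2-fold higher (1.06%), namely Mx2 (3.61-fold, 2.02 to 6.86), Isg15 (2.41-fold, 1.91 to 3.05), Dhx58 (2.23-fold, 1.73 to 2.9), Ifit1 (2.07-fold, 1.76 to 2.45) and Zbp1 (2.15-fold, 1.65 to 2.83). None passed with a pseudocount of 5 CPM. The agents were given on different schedules, 6 times over 3 weeks and 3 times in 1 week, so agent and schedule cannot be told apart.

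**Figure D4:**
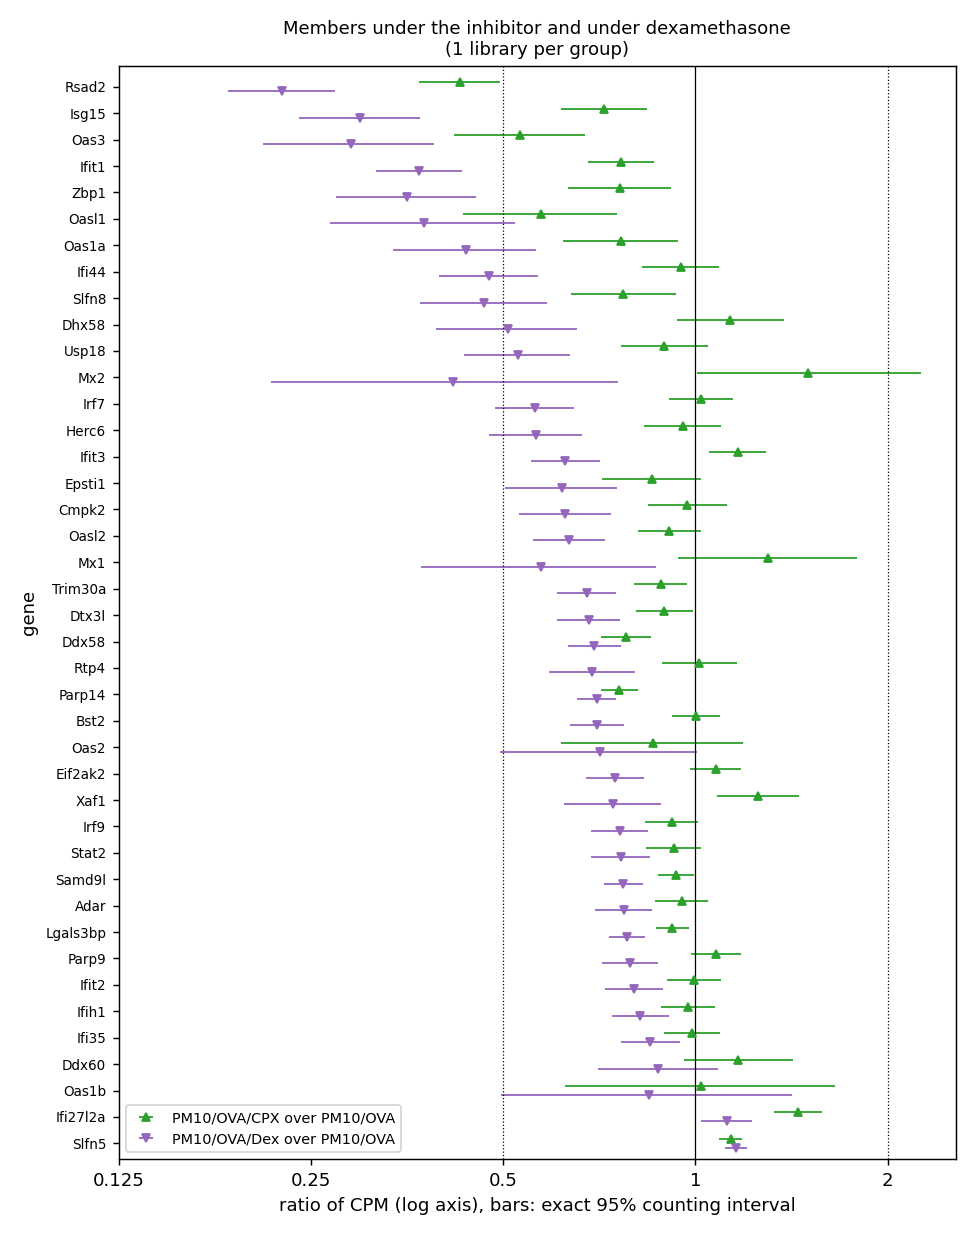
Ratio of CPM of each member in PM10/OVA/CPX (green) and PM10/OVA/Dex (purple) over PM10/OVA, on a log axis, with exact 95% counting intervals, from 1 library per group. Dotted lines mark 2-fold. Rsad2 lies farthest left for both agents (2.34-fold and 4.44-fold lower), and Slfn5 and Ifi27l2a are the 2 genes above 1 under dexamethasone.

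The rest of the pathway was read from lists of named genes, ligands first. Of 20 listed type I and type III interferon genes, Ifnb1 and the Ifna genes among them, all 20 had 0 counts in all 5 libraries, PM10 included. A count of 0 allows up to 3 counts, which comes to between 0.173 and 0.252 CPM over the libraries. The Ifna genes are near-identical copies, and the labels do not say how reads fitting several genes were counted. Ifng, the type II ligand, had 3, 6, 5, 4 and 5 counts, too few to order the libraries.

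Receptors and kinases differed little between PM10 and control. The type I receptor chains Ifnar1 (1.14-fold) and Ifnar2 (1.38-fold), the type II chains Ifngr1 (1.14-fold) and Ifngr2 (1.28-fold), and the kinases Jak1 (1.03-fold), Jak2 (1.08-fold) and Tyk2 (1.32-fold) were under 2-fold higher. So was the shared chain Il10rb (1.04-fold), and the type III receptor gene Ifnlr1 was 1.27-fold lower (1.04 to 1.56).

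Upstream, 3 of 18 genes that lead to interferon production were at least 2-fold higher in PM10 (median 0.75), where 3.7% of all genes were. All 3 are endosomal Toll-like receptors. Tlr7, a sensor of single-stranded RNA, was at 13.1, 57.1, 28.9, 38.8 and 26.2 CPM (4.36-fold, 3.75 to 5.09), Tlr8 at 13, 38.4, 20.1, 30.4 and 23 CPM (2.96-fold, 2.52 to 3.49), and Tlr9, the sensor of CpG DNA, at 4.73, 16.3, 7.95, 6.95 and 3.53 CPM (3.45-fold, 2.65 to 4.52). These receptors are carried by macrophages, dendritic cells and B cells. Irf5, the next in the list, was 1.93-fold higher (1.67 to 2.22). Of 10 brakes on signalling, Trex1, which degrades cytosolic DNA (2.99-fold, 2.49 to 3.59), and Socs3, a feedback inhibitor of JAK kinases (2.04-fold, 1.81 to 2.31), were 2-fold higher, while Ptpn6 (1.66-fold) and Ptpn2 (1.62-fold) were not. Socs3 was at 25.9, 53, 84.6, 47.6 and 66.3 CPM, highest in PM10/OVA rather than in PM10.

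Other interferon-stimulated genes were higher in PM10 too. In a list of 50 further genes, 48 were measured, 21 were at least 2-fold higher in PM10 than in control and none lower (median 0.91). Of all genes, 3.7% were that much higher and 2.04% lower. The largest were Slfn4, a myeloid Schlafen gene, at 4.79, 67.1, 25.9, 8.46 and 7.99 CPM (14-fold, 11.2 to 17.8), Oas1g (12.1-fold, 7.8 to 19.5), Ifi204, a DNA-sensor family gene (5.53-fold, 4.67 to 6.58), and Slfn9 (6.15-fold, 4.71 to 8.13). In PM10/OVA against PM10, 13 of the 48 were 2-fold lower (1.27% of all genes), with a median of -0.75. Slfn4 was 5.42-fold higher (4.27 to 6.94) in PM10/OVA against control, and in PM10/OVA/CPX it was 3.06-fold lower (2.47 to 3.83) than in PM10/OVA. Under dexamethasone 6 of the 48 were 2-fold lower than in PM10/OVA (1.6% of all genes), with a median of -0.39.

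Genes that respond to interferon-gamma were higher in PM10 as well. Of 26 measured, 15 were at least 2-fold higher in PM10 than in control (3.7% of all genes), with a median of 1.08. In PM10/OVA against PM10, 2 were 2-fold lower (1.27% of all genes), with a median of -0.50. Cxcl9, which attracts T cells, was at 0.98, 18.4, 15.5, 2.32 and 1.43 CPM and Cxcl10, a ligand of the same receptor, at 1.27, 25.2, 14.3, 3.19 and 0.42 CPM, so both stayed high in PM10/OVA. Cxcl11, at 2, 65, 50, 1 and 1 counts, did too, and the GTPase gene Tgtp1 was at 2.77, 16.1, 10.2, 7.03 and 3.11 CPM. Under dexamethasone 10 of the 26 were 2-fold lower than in PM10/OVA (1.6% of all genes), with a median of -0.94. Under the inhibitor 3 were (0.762% of all genes), Cxcl9, Cxcl10 and Cxcl11. The difference between this list and the 41 genes was not tested.

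**Figure D5:**
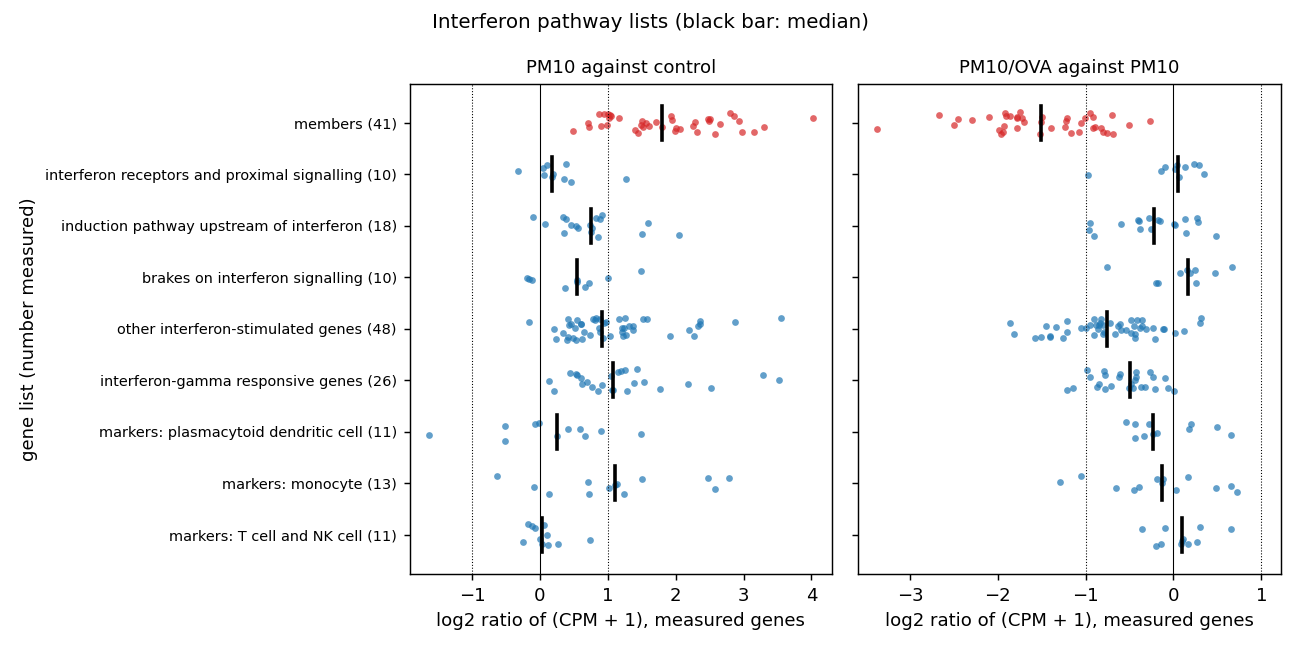
Log2 ratios of (CPM + 1) of measured genes in the 41 members (red) and in lists of the pathway and of cell type markers (blue), for PM10 against control (left) and PM10/OVA against PM10 (right). Black bars are medians and dotted lines mark 2-fold. Members have the highest median on the left (1.79) and the lowest on the right (-1.51).

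Genes outside the set with the most similar profile were sought among 1022 genes that averaged 5 CPM or more and had a range of at least 1 on the log2 scale, by Pearson's r with the mean log2(CPM + 1) of the 41 genes. The r rests on 5 libraries that all genes share and is a description. Among the 10 highest were Pyhin1 (0.998), Gm5431 (0.997), Lgals9 (0.996), Irgm1 (0.996), Uba7 (0.995), Gm6548 (0.993), Ifi44l (0.990), Phf11d (0.988) and Trafd1 (0.988). Uba7 encodes the enzyme that activates ISG15, and Irgm1 an immunity-related GTPase. Pyhin1 was at 7.5, 26.4, 9.08, 9.26 and 5.89 CPM, Ifi44l, the paralog of Ifi44, at 3.34, 27.8, 4.16, 3.35 and 2.19 CPM and Gm5431 at 3.06, 19.4, 4.1, 3.75 and 1.6 CPM. All 3 were several-fold higher in PM10 than in any other library, and a peak there follows from how they were chosen. Among the 41 genes themselves, those least like the mean of the rest were Slfn5 (r of 0.77), Ifi35 (0.83) and Ifi27l2a (0.92).

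Position was shared as well. Of the 41 genes, 18 lay within 100 kb of another, in 7 clusters on GRCm38, the largest being Oas2, Oas3, Oas1b and Oas1a on chromosome 5. Neighbours did not always go together. Rsad2 (chromosome 12, 26442746 to 26456452) and Cmpk2 (chromosome 12, 26469204 to 26479837) were both higher in PM10, yet in PM10/OVA against control Rsad2 was 2.42-fold and Cmpk2 1.04-fold higher. Mx1 (chromosome 16, 97447035 to 97462907) and Mx2 (chromosome 16, 97535308 to 97560900) were 3.09-fold higher and 1.41-fold lower in the same comparison. For Mx2 the interval (0.967 to 2.07) took in no difference. Slfn8 was 3.44-fold and Slfn5 1.41-fold higher in PM10 than in control. Parp9 and Dtx3l overlap on opposite strands, and their ratios in that comparison were 2.02-fold and 2.09-fold. The labels do not say whether the counting used strand. In all, 7 of the 41 genes overlap another gene in the tables, among them Irf7 with Phrf1 and Adar with Chrnb2, so reads from partners may be included.

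Markers of immune cell types were read beside the program. Of all genes measured, 3.7% were at least 2-fold higher in PM10 than in control and 2.04% lower. In PM10/OVA against PM10, 0.692% were 2-fold higher and 1.27% lower. Of 13 monocyte markers, 8 were at least 2-fold higher in PM10 than in control (median 1.11), such as Ms4a6d (7.47-fold, 6.38 to 8.78) and Fcgr1 (6.67-fold, 5.48 to 8.17). In the same comparison 2 of the 13 lay below 0, with F13a1 the lowest at a log2 ratio of -0.63. Plac8 is in both this list and that of interferon-stimulated genes. Without Chil3 and Lyz2, which macrophages also express, the list summed to 633, 1065, 967, 861 and 764 CPM. In PM10/OVA against PM10, 8 of the 13 markers lay below 0 and 2 were 2-fold lower, with Fcgr1 the lowest (2.53-fold, 2.2 to 2.92). The full list, with Chil3 at 108, 309, 509.6, 4455 and 1427 CPM, summed to 3603, 7669.6, 6266, 10958 and 7872 CPM, highest in PM10/OVA/CPX. Of 11 plasmacytoid dendritic cell markers, 1 was 2-fold higher in PM10, Lair1 (3.0-fold), and 1 lower, Cox6a2 (3.27-fold), which heart muscle also expresses (list summed 399, 399, 357, 363 and 368 CPM). Siglech, a defining marker, was 1.39-fold higher (1.04 to 1.87) at 96, 93, 86, 72 and 41 counts. Of 11 measured T and NK cell markers none passed 2-fold (summed 140.3, 145, 166, 140.0 and 94.8 CPM), and Klra8 was at 0 in all libraries. Of 11 measured alveolar macrophage markers, 4 were 2-fold higher and 1 lower in PM10 than in control (summed 653, 1047, 1279, 5462 and 2265 CPM, Chil3 included). No B cell marker of 8 passed 2-fold in that comparison, and 7 lay below 0 (summed 195, 152, 254, 163 and 87.2 CPM). Of 10 measured neutrophil markers, 2 were 2-fold higher and 1 lower in PM10 than in control, and 7 were 2-fold higher in PM10/OVA than in PM10 (summed 599, 321, 759, 653 and 627 CPM). None of the markers in the monocyte, plasmacytoid, alveolar macrophage, B cell and neutrophil lists that the tables hold was at 0. The part of cell numbers in the result was not tested.

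Surfactant genes placed every library in lung, with Sftpc at 12728, 12986, 13995, 13412 and 13741 CPM. Heart muscle, fat and cartilage genes that border the lung were 2-fold lower in PM10 than in control in 14 of 14 cases, against 2.04% of all genes. They summed to 3526, 718, 317, 275 and 724 CPM, highest in control. Their sum in PM10/OVA/Dex was close to that in PM10. The part of tissue content in the result was not tested.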

How the data were processed

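The labels' protocols name Trizol for RNA extraction and a directional NEBNext Ultra II kit, starting from 1.3 ug of RNA per library. TopHat and the build mm10 are named per the submitters' processing notes, without versions. No source used here names the counting program, its annotation or its strand setting. The authors deposited unnormalized counts for gene symbols, in a separate file for each library.

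Counts were scaled to CPM with TMM factors over the 5 libraries (edgeR 4.0.16, R 4.3.3). A gene with a mean of at least 1 CPM was measured. Ratios were taken on log2(CPM + 1), a scale that shrinks ratios of low genes, and 2-fold on that scale was counted. Folds are ratios of CPM with exact (Clopper-Pearson conditional) 95% intervals (scipy 1.17.1), and intervals and floors of 3 counts cover counting error only. With 1 library per group no test, p-value or standard error was computed. Exon lengths and coordinates are from GENCODE for GRCm38, and sequences from RefSeq, GRCm38.p6. For 26 of 36 windows the first bases after the start were found in a GENCODE transcript of the gene. The scripts were tested on simulated data.

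The 41 genes, the lists and the tests were chosen with earlier results of these data known. Named genes are the 41, all receptors, up to 4 genes per pathway list with the largest absolute ratio of PM10 against control, and the 10 most similar genes. One gene that this rule names is not reported here. Marker genes, genes of the other comparisons within a list, and the contrasts of treated libraries with control were added after values were seen. Alternatives were DESeq2 1.42.0 size factors, library totals alone, pseudocounts of 0.25 and 5 CPM, no filter and a mean of at least 5 CPM.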

Additional observations from a re-analysis of the deposited data

How the results depend on the processing

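Counts of genes at least 2-fold higher or lower and medians were recomputed in 6 comparisons under 6 alternatives. Of these 108 values, 104 stayed within 1.5 times the count or, for a median, within a margin taken from the counting intervals of single genes. With no filter the values are the same by construction, because all 41 genes pass the filter. The 4 that moved all did so with a pseudocount of 5 CPM, which by construction shrinks ratios of low genes. The median for PM10 against control was then 1.495. Under the same setting 1 gene was 2-fold higher in PM10/OVA than in control, 5 were 2-fold lower in PM10/OVA/Dex than in PM10/OVA and 0 were 2-fold lower in PM10/OVA/Dex than in PM10/OVA/CPX. Of 336 values of single called genes, 27 moved by more than a margin taken from their counting interval, all with that pseudocount. None reversed, which says little. A pseudocount cannot change the sign of a ratio, and the genes were picked as past 2-fold before rescaling. All 41 genes were highest in PM10 under the 3 scalings, and 33 or 34 were lowest in PM10/OVA/Dex. No paired analysis was possible because each group has 1 library, and no library could be left out for the same reason. Depth was no limit for most of the 41 genes, while the low counts of Mx1, Mx2 and Oas1b give wide intervals.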
